A study of Mus musculus with 30 samples.

Results

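The DNA replication genes described here are 40 genes whose products prepare, unwind, copy and seal chromosomal DNA or supply its nucleotides, together with 4 regulators of entry into S phase that are counted among the 40. Each gene was represented by 1 probe set: of those that the platform annotation gives to that symbol alone, the one with the highest mean over the 30 arrays. All 40 symbols were measured, out of 18193 genes represented in the same way, and no filter on low signals was applied, so that all 40 entered every test. The cells were mouse embryo fibroblasts (MEFs) of the genotype MyoD-/-/Myf5-/-, which lack a pair of factors that direct cells into the skeletal muscle lineage, and all 10 groups share this genotype. They were transduced with a retrovirus for wild-type MyoD joined to the hormone-binding domain of the estrogen receptor (ER-MyoD wt), with one for the same fusion in which point mutations of lysines 99, 102 and 104 prevent acetylation (ER-MyoD RRR), or with a retrovirus that has no insert (empty retrovirus, called the control below and "empty" in the plots). Cells of each construct were kept in differentiation medium, and total RNA was taken from ER-MyoD wt cells at 0, 6, 12 and 24 h and from the other constructs at 6, 12 and 24 h, with 3 arrays in each of the 10 groups. The design text names beta-estradiol, the ligand of the fusion, as a supplement of the medium of the ER-MyoD cells, and the labels of the control cells name the medium alone. MyoD was thus present only as a retroviral fusion protein. At 0 h only ER-MyoD wt was analysed here, and the labels do not say that the 3 arrays of a group came from separate cultures, so that p-values reflect the spread of these arrays alone, which may be technical.

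Before a cell divides, the origin recognition complex (ORC) with Cdc6 and Cdt1 loads the ring-shaped Mcm helicase onto DNA. In S phase Cdc45 and the GINS complex switch the helicase on, primase and DNA polymerase alpha start each strand, and polymerases delta and epsilon extend it with the sliding clamp Pcna. The genes for these proteins are classical targets of the E2F transcription factors, which the retinoblastoma protein holds in check. Skeletal muscle cells leave the cell cycle for good as they differentiate, and fibroblasts leave it reversibly when serum is withdrawn.

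Replicate arrays correlated with Pearson's r of 0.946 to 0.973, and 27 of 30 arrays were nearest to an array of their own group. Control 12 h replicates 1 and 3 were closer to control arrays of 6 h, and replicate 2 of ER-MyoD RRR at 6 h to one of ER-MyoD wt. ER-MyoD RRR 6 h replicate 2, control 12 h replicate 1 and ER-MyoD wt 24 h replicate 3 had the lowest mean correlations with their own group, 0.949, 0.950 and 0.951, and are called the 3 arrays that stood apart. The first of these had the largest ratios of 3' over 5' probe set signals, a sign of RNA quality, at 2.44 for Gapdh and 3.61 for Actb. The summed signal of 6 fibroblast markers was between 15143 and 44691 on every array. This sum does not speak for each marker: Pdgfra had 10.2 to 102 in ER-MyoD wt at 12 h and 1563 to 1990 in control cells at 24 h. The summed signal of 6 muscle markers was 79.2 to 113 in control cells at 24 h, 30269 to 33900 in ER-MyoD RRR and 42678 to 50798 in ER-MyoD wt. Of 5 endothelial markers 3, and of 6 macrophage and blood markers 1, stayed under a signal of 50 on all arrays, as did 0 of 5 epithelial markers, whose sum was 212 to 730. Csf1r, a macrophage receptor gene, was at 378 to 592 in ER-MyoD wt at 12 h and 111 to 162 in control cells, and Epcam, an epithelial marker, reached 543. The part of these signals in the results was not tested. With so few arrays per group, their number limits the precision.

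The start regions of 33 of the 40 genes were in the RefSeq promoter table (mouse build GRCm38.p6), as 39 windows from 250 bases before to 50 bases after a transcription start. They were searched on both strands for 4 spellings of an E2F-type motif, TTTCCCGC, TTTGGCGC, TTTCGCGC and TTTGCCGC. The motif was found in 13 of the 39 windows (33.3%), against 744 of 32851 windows of all genes (2.26%), and every one of these 13 windows belonged to a different gene. The median GC content of the windows was 58.3% for the replication genes and 52.7% for all genes. CCAAT, a motif of 5 letters that is common in start regions, was in 53.8% of the windows of replication genes and in 37.4% of all windows. Genes with 1 window were ranked by their log2 difference between ER-MyoD wt and control cells at 24 h. The 5 largest differences with the motif and the largest without it were taken for display. Rfc5 (-1.47), Dut (-1.44) and Pola2 (-1.36) also lack the motif and are not shown, although they differed more than Cdt1 (-1.29). Of the genes below that were lower in ER-MyoD wt than in control cells at 24 h, the following 6 windows are shown 5′ to 3′ on the strand of the gene, 5 with the motif in capitals and Prim1, the gene for the small primase subunit, without any of the 4 spellings. They are Pola1 (chrX:93632106-93632405, minus strand), Pole2 (chr12:69228141-69228440, minus strand), Cdt1 (chr8:122567765-122568064, plus strand), Mcm5 (chr8:75109259-75109558, plus strand), Mcm6 (chr1:128359656-128359955, minus strand) and Prim1 (chr10:128014965-128015264, plus strand).
Pola1: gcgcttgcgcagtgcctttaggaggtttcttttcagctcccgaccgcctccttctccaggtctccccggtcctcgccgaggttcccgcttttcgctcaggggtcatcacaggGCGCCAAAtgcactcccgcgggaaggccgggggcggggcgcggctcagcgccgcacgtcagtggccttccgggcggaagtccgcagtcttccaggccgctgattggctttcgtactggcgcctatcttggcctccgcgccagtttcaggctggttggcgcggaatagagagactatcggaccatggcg
Pole2: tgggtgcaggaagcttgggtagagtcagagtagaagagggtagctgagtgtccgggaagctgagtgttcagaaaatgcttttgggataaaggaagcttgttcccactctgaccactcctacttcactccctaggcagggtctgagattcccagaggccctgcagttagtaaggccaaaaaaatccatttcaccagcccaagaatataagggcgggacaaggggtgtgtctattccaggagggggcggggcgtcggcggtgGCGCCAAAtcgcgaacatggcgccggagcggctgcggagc
Cdt1: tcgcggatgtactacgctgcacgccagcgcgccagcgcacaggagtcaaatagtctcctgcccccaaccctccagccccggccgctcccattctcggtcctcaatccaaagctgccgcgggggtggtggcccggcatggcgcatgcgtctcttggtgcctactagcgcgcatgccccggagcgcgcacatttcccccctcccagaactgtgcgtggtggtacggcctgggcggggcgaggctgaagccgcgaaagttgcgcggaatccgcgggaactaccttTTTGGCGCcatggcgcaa
Mcm5: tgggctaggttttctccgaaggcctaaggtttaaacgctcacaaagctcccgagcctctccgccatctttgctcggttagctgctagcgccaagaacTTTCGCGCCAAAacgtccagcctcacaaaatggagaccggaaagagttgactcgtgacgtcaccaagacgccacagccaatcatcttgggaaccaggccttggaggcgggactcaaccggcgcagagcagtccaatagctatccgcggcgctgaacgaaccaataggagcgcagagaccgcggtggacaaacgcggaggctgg
Mcm6: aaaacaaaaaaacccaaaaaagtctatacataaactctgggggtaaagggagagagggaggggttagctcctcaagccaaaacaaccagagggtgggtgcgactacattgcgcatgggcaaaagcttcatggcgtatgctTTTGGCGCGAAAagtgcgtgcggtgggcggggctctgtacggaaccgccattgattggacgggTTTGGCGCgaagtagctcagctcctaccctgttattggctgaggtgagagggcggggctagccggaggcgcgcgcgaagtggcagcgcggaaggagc
Prim1: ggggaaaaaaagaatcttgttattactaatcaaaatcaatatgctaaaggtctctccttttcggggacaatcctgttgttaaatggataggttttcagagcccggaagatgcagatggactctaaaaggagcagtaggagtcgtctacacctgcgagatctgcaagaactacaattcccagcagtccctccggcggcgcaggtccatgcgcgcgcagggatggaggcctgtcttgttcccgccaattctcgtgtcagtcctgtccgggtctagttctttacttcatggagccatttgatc

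In Mcm5 the capitals hold TTTCGCGC and, overlapping it on the other strand, TTTGGCGC. In Mcm6 the first run of capitals holds the same 2 spellings on opposite strands, and a further TTTGGCGC lies closer to the start. The copies in Pole2 and Cdt1 lie just after the annotated start. A match is a description of these letters and not a site at which a protein was measured.

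Nearly all replication genes fell in all 3 constructs, and most of the fall came after 12 h. From 6 to 24 h, 39 of the 40 genes fell in ER-MyoD wt (12.4% of all genes were called lower), 38 in ER-MyoD RRR (12.9% of all genes) and 38 in control cells (7.67% of all genes), and none rose, by limma at an adjusted p under 0.05. The median log2 difference over the 40 genes was -2.21, -2.02 and -1.55, while that of all genes was 0.02, -0.02 and -0.02. The median signal left at 24 h was 20.2% of the 6 h signal in ER-MyoD wt, 22.6% in ER-MyoD RRR and 34.4% in control cells. In all 3 constructs 37 of 40 genes fell, against 726 of all genes (3.99%). The exceptions were Mcm2, which did not pass in either ER-MyoD construct, Orc1, which did not pass in ER-MyoD RRR and control cells, and the dim Tyms, which did not pass in control cells. Of 33 other probe sets of the 40 genes with a mean signal of at least 50, 26 passed in each construct. In ER-MyoD wt 26, in ER-MyoD RRR 24 and in control cells 24 were of genes whose chosen probe set passed too. Which genes did not pass thus depended in part on the probe set. Of all genes with a mean signal of at least 50, each with 1 probe set, 39.1% passed in ER-MyoD wt in either direction. In ER-MyoD RRR 39.8% of them passed, and in control cells 27.1%. These are bulk samples, in which fewer cells in S phase and less of each RNA per cell cannot be told apart.

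**Figure D1:**
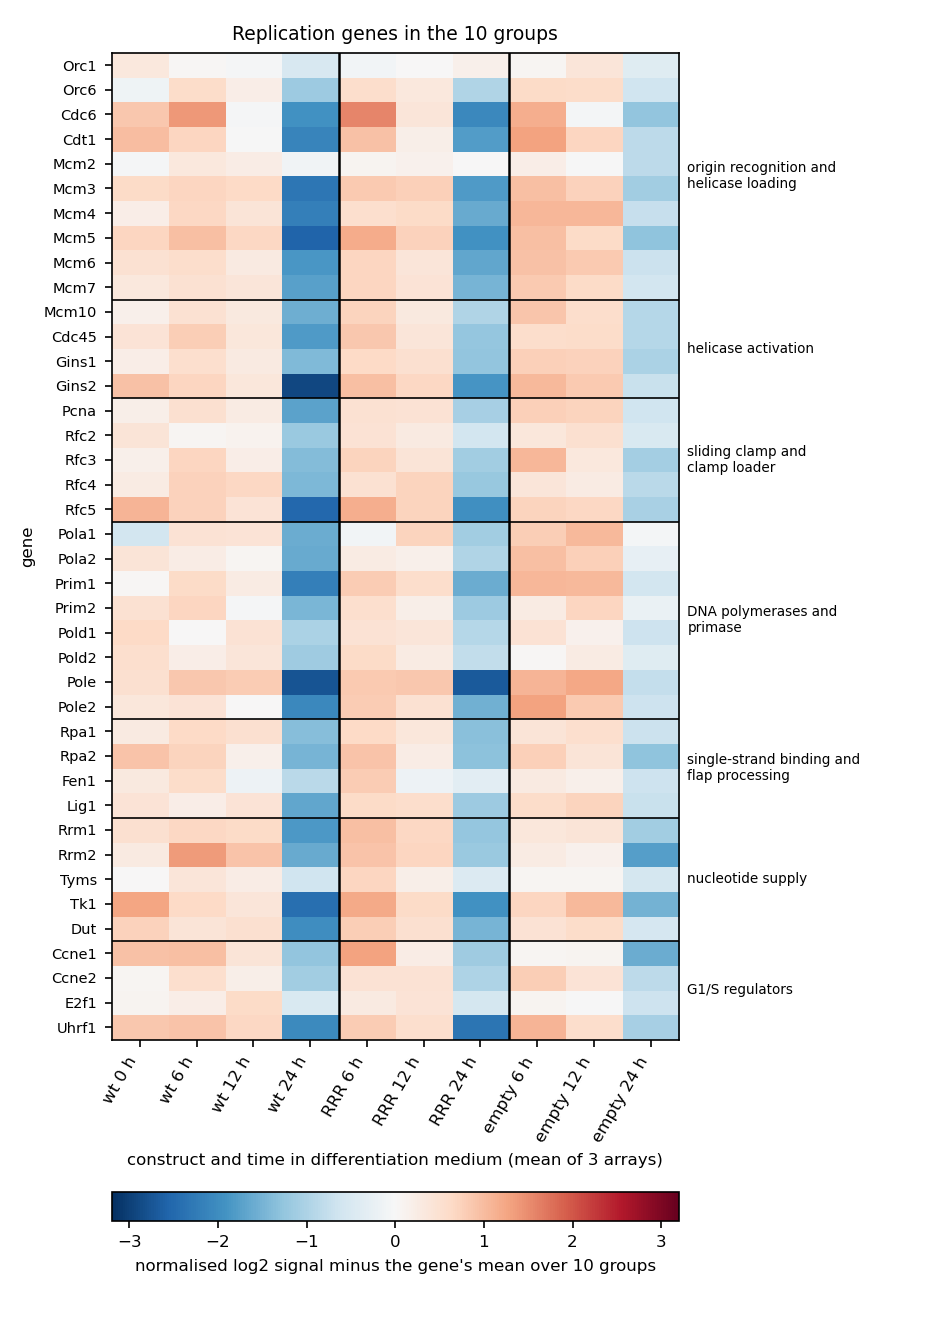
Heat map of the 40 replication genes (rows, grouped by role) in the 10 groups of 3 arrays (columns). Colour is the mean normalised log2 signal of the group minus the gene's mean over the 10 groups. The 24 h columns are blue for nearly all genes, and the lowest group was ER-MyoD wt at 24 h for 34 of the 40 genes.

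The drop from 12 to 24 h was larger than that from 6 to 12 h for 39 of 40 genes in ER-MyoD wt, 38 in ER-MyoD RRR and 39 in control cells. The later interval is also the longer one, and the share of all genes with a larger later drop is not given here. The median steps on the log2 scale were -0.25 from 6 to 12 h and -2.003 from 12 to 24 h in ER-MyoD wt, -0.27 and -1.75 in ER-MyoD RRR, and -0.08 and -1.43 in control cells. Between 12 and 24 h, 38 genes passed as lower in ER-MyoD wt (9.21% of all genes), 36 in ER-MyoD RRR (8.27%) and 38 in control cells (6.65%). Over all 10 groups the distance between a gene's highest and lowest group mean ranged from 0.91 to 4.01 on the log2 scale, with a median of 2.59. The highest group was one of the 6 h groups for 30 genes, in 15 of them the control, in 10 ER-MyoD RRR and in 5 ER-MyoD wt.

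In ER-MyoD wt the genes did not fall on entry into the medium. From 0 to 6 h 7 rose (9.51% of all genes were called higher) and 2 fell (8.20% were called lower), with a median log2 difference of 0.18 against -0.05 for all genes. Among genes with a mean signal of at least 50, 30.9% passed in either direction, as did the same 9 replication genes. This count is therefore not read as particular to them. Rrm2, the small subunit of ribonucleotide reductase, which makes deoxynucleotides, rose by 1.08 ± 0.14 (standard error of the model, n = 3 arrays per group, adjusted p = 1.42e-06). Pola1, the catalytic subunit of polymerase alpha, had signals of 171, 150 and 124 at 0 h and 410, 270 and 397 at 6 h. The 6 h arrays lay above all 0 h arrays (log2 difference 1.06 ± 0.16, adjusted p = 1.63e-05). Orc6, an ORC subunit (0.73), Prim1 (0.57), Mcm4 (0.45), Rpa1 (0.36) and Pcna (0.32) also rose. Pold1, the catalytic subunit of polymerase delta (-0.63, adjusted p = 0.00211), and Tk1, the thymidine kinase of dividing cells (-0.64, adjusted p = 0.0112), fell. From 0 to 24 h 39 of 40 genes were lower (16.2% of all genes), with a median of -2.06 and Mcm2 as the exception (-0.09 ± 0.28, adjusted p = 0.871). Medium, hormone and time change together from 0 h and cannot be told apart.

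Among the 10 genes of origin recognition and helicase loading, the helicase subunit Mcm5 had the smallest p in each of the 3 falls from 6 to 24 h. Its signal in ER-MyoD wt was 2438, 2740 and 2390 at 6 h, 1984, 1781 and 2371 at 12 h and 221, 212 and 169 at 24 h. The ER-MyoD RRR signals were 3035, 3447 and 2779 at 6 h, 1970, 2482 and 1880 at 12 h and 356, 276 and 314 at 24 h. In control cells it was 2147, 2269 and 2475 at 6 h, 1633, 2051 and 1693 at 12 h and 429, 539 and 531 at 24 h. Each construct's 24 h arrays thus lay far below its earlier ones, and at 24 h the constructs stood apart without overlap, ER-MyoD wt lowest and the control highest. The fall from 6 to 24 h was -3.52 ± 0.13 in ER-MyoD wt (adjusted p = 7.03e-18), -3.12 ± 0.13 in ER-MyoD RRR (adjusted p = 9.3e-17) and -2.27 ± 0.13 in control cells (adjusted p = 1.77e-13). At 24 h 8.0% of the 6 h signal was left in ER-MyoD wt, 10.2% in ER-MyoD RRR and 21.8% in control cells.

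Mcm7, another subunit of the same ring, had signals of 667, 872 and 597 in ER-MyoD wt at 24 h, 900, 755 and 763 in ER-MyoD RRR and 1320, 1527 and 1498 in control cells. The control arrays lay above all others, and the arrays of the ER-MyoD constructs overlapped. Mcm4 had 214, 187 and 155 in ER-MyoD wt at 24 h, 314, 276 and 251 in ER-MyoD RRR and 497, 457 and 613 in control cells. Mcm6 had 384, 316 and 275, then 386, 414 and 321, and 695, 648 and 882 in the same groups. Here, too, control cells were highest without overlap, and for Mcm4 ER-MyoD RRR lay above ER-MyoD wt on every array. Cdt1, the loader of the helicase, was already lower in ER-MyoD wt at 6 h, at 1457, 1500 and 1539, with the control at 1999, 1926 and 2177. At 12 h it was at 913, 691 and 1112, with the control at 1015, 1619 and 1505. By 24 h it was at 184, 204 and 187 in ER-MyoD wt, 290, 201 and 267 in ER-MyoD RRR and 454, 492 and 528 in control cells. The Cdt1 groups of ER-MyoD wt and the control were apart at 6 h, overlapped at 12 h and were apart at 24 h. Cdc6, which works with ORC, kept the least signal of this group in ER-MyoD cells, 6.6% of the 6 h value in ER-MyoD wt, 5.9% in ER-MyoD RRR and 14.9% in control cells. Its 24 h signals of 15.7 to 38.1 in ER-MyoD wt and 9.39 to 39.8 in ER-MyoD RRR lay below the median signal of every one of these arrays, so that the shares left are imprecise and its log2 difference understates the change.

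Mcm2, a further subunit of the ring, did not pass from 6 to 24 h in the ER-MyoD cells. Its signal at 24 h was 1072, 679 and 1241 in ER-MyoD wt, 866, 1060 and 1180 in ER-MyoD RRR and 760, 304 and 827 in control cells, against 1390, 1515 and 1373, then 1189, 1392 and 1060, and 963, 1107 and 1478 at 6 h. The 24 h arrays of the ER-MyoD constructs overlapped each other, and the ER-MyoD RRR arrays lay above all control arrays. At 24 h Mcm2 was higher in ER-MyoD RRR than in control cells (0.86 ± 0.28, adjusted p = 0.0327), and the difference of ER-MyoD wt was 0.71 ± 0.28 (adjusted p = 0.068). A second Mcm2 probe set passed in both comparisons, at 1.22 ± 0.20 in ER-MyoD wt (adjusted p = 3.34e-05 over all probe sets) and 0.61 ± 0.20 in ER-MyoD RRR (adjusted p = 0.0443 over all probe sets). Orc1, the largest ORC subunit, was dim, at 68.5 to 213 over all arrays.

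**Figure D2:**
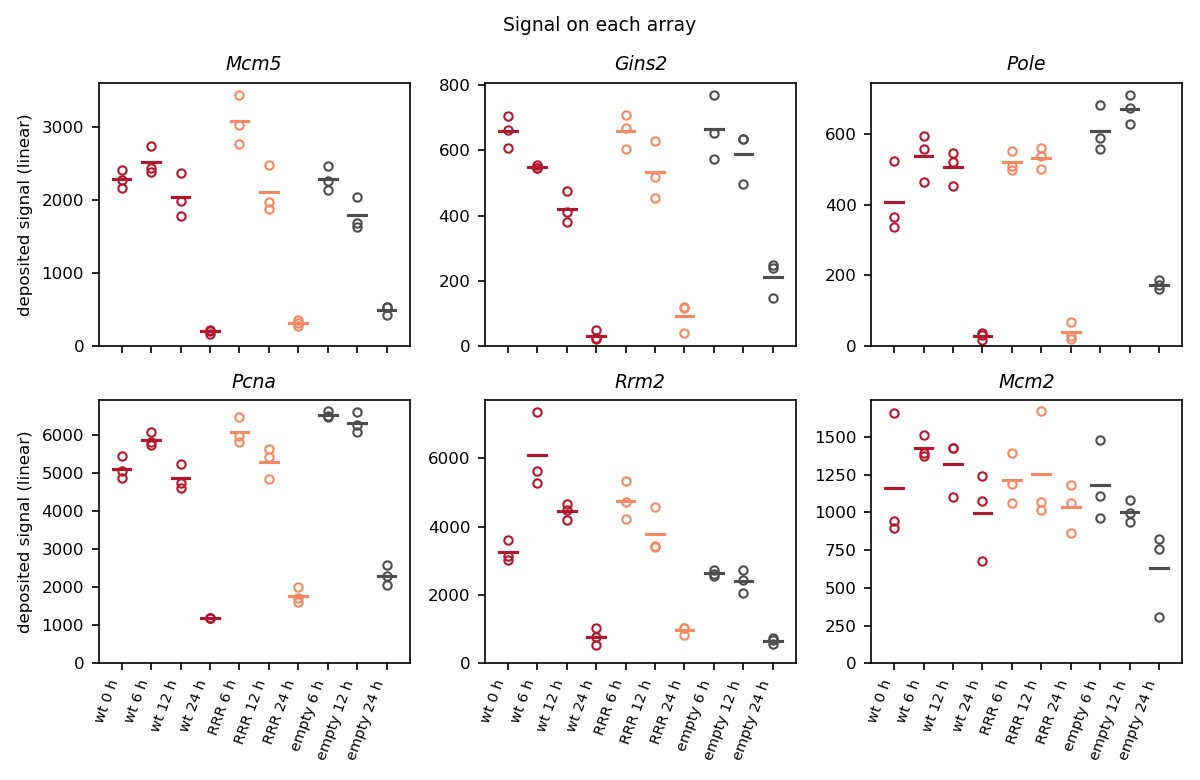
Deposited linear signal (vertical axis) of 6 replication genes on each of the 30 arrays, by construct and time (horizontal axis). Circles are arrays and bars are means of 3 arrays. Mcm5, Gins2, Pole, Pcna and Rrm2 are low at 24 h in all constructs, Rrm2 is highest in ER-MyoD wt at 6 h, and Mcm2 keeps most of its signal in the ER-MyoD cells.

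All 4 genes of helicase activation fell from 6 to 24 h in every construct. Gins2, a subunit of the GINS complex that joins the helicase at the fork, had signals of 545, 554 and 546 in ER-MyoD wt at 6 h, against 48.0, 24.2 and 21.1 at 24 h. In ER-MyoD RRR it went from 709, 669 and 604 to 41.1, 117 and 120, and in control cells from 652, 575 and 770 to 148, 248 and 239. The 24 h arrays of the control lay above all those of the ER-MyoD constructs, which overlapped each other. The difference between ER-MyoD wt and the control at 24 h was -2.19 ± 0.25 (adjusted p = 5.98e-08), and 5.7% of the 6 h signal of Gins2 was left in ER-MyoD wt against 31.8% in control cells. The medians of the ER-MyoD wt arrays at 24 h were 45.3, 39.2 and 59.2, so that Gins2 lay near or below them there and the share left and the size of the difference are imprecise. Cdc45, which binds the helicase when it is switched on, kept 13.4%, 23.3% and 35.01% in ER-MyoD wt, ER-MyoD RRR and control cells. Gins1 kept 23.5%, 26.3% and 29.1% in the same order, and its difference between ER-MyoD wt and the control at 24 h was -0.39 ± 0.16 (adjusted p = 0.0725). Mcm10, which helps to start unwinding, kept 21.9%, 31.0% and 28.8%.

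Pcna, the sliding clamp, had 24 h signals of 1183, 1180 and 1196 in ER-MyoD wt, 1992, 1606 and 1718 in ER-MyoD RRR and 2059, 2286 and 2569 in control cells, from 6 h signals between 5744 and 6629 in all constructs. No arrays of different constructs overlapped at 24 h. ER-MyoD wt minus the control was -1.08 ± 0.10 (adjusted p = 2.34e-09), ER-MyoD RRR minus the control -0.43 ± 0.10 (adjusted p = 0.00326), and ER-MyoD RRR minus ER-MyoD wt 0.65 ± 0.10 (adjusted p = 0.000168). The clamp loader subunits Rfc2, Rfc3, Rfc4 and Rfc5 all fell from 6 to 24 h in every construct. In the ER-MyoD constructs Rfc5 fell furthest, to 8.4% of its 6 h signal in ER-MyoD wt and 10.4% in ER-MyoD RRR. In control cells Rfc3 fell furthest, to 22.6%, and Rfc5 kept 31.3%. Rfc2 fell least, to 39.7% in ER-MyoD wt, 45.1% in ER-MyoD RRR and 56.4% in control cells. At 24 h Rfc2 and Rfc5 were lower in ER-MyoD wt than in control cells (-0.68 and -1.47), while Rfc3 (-0.30, adjusted p = 0.446) and Rfc4 (-0.57, adjusted p = 0.0619) did not pass.

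The 8 genes of DNA polymerases and primase had the lowest median of the role groups in ER-MyoD wt minus the control at 24 h, -1.38, and 7 of the 8 were lower. Prim1 had the smallest p of all 40 genes there. Its signal at 24 h was 138, 147 and 153 in ER-MyoD wt, 204, 234 and 263 in ER-MyoD RRR and 452, 481 and 501 in control cells. The 3 groups did not overlap (ER-MyoD wt minus the control -1.61 ± 0.12, adjusted p = 2.68e-11). Pole, the catalytic subunit of polymerase epsilon, had 37.6, 32.3 and 16.2 in ER-MyoD wt, 66.8, 18.9 and 29.3 in ER-MyoD RRR and 172, 162 and 187 in control cells. The ER-MyoD arrays overlapped and were all far below the control (-1.999 ± 0.23, adjusted p = 8.32e-08, and -1.91 ± 0.23, adjusted p = 3.92e-07), and 5.3% of the 6 h signal was left in ER-MyoD wt. All 3 ER-MyoD wt signals of Pole were below the array medians given for Gins2, so these sizes are imprecise too. Its partner subunit Pole2 had 87.4, 58.2 and 55.7, then 101, 110 and 114, and 217, 180 and 230 in the same groups, again without overlap. Pola1 had 69.9, 73.8 and 80.7, then 123, 100 and 131, and 258, 240 and 258, with no overlap either. Prim2, the large primase subunit, had 144, 112 and 142 in ER-MyoD wt, 178, 193 and 148 in ER-MyoD RRR and 317, 321 and 396 in control cells, which had been at 523, 421 and 475 at 6 h. Control cells thus kept 72.9% of their 6 h Prim2 signal, against 20.0% in ER-MyoD wt and 29.7% in ER-MyoD RRR. Pold2, the accessory subunit of polymerase delta, was likewise kept in control cells, at 78.4% against 36.5% and 34.5%. Pold1 kept 46.6%, 38.9% and 46.7% and did not pass between ER-MyoD wt and the control at 24 h (-0.36, adjusted p = 0.07).

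Rpa1, the large subunit of the protein that covers single-stranded DNA, had 24 h signals of 1189, 1703 and 954 in ER-MyoD wt, 1332, 1088 and 1186 in ER-MyoD RRR and 1526, 1968 and 1950 in control cells. Of the ER-MyoD wt arrays 1 lay within the range of the control, and all ER-MyoD RRR arrays lay below it. The differences from the control were -0.67 ± 0.12 (adjusted p = 3.77e-05) and -0.64 ± 0.12 (adjusted p = 0.000131). Lig1, the ligase that seals the lagging strand, was lower than in control cells, with log2 differences of -0.94 ± 0.13 in ER-MyoD wt and -0.45 ± 0.13 in ER-MyoD RRR. Rpa2 (-0.18, adjusted p = 0.595) and the flap nuclease gene Fen1 (-0.19, adjusted p = 0.564) did not pass in ER-MyoD wt, although both fell from 6 to 24 h in each construct. A second Fen1 probe set did pass (-0.68 ± 0.21, adjusted p = 0.0257 over all probe sets).

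Among the nucleotide supply genes, Rrm2 signals were 5296, 7358 and 5629 in ER-MyoD wt at 6 h, 4719, 5350 and 4230 in ER-MyoD RRR and 2559, 2619 and 2738 in control cells. At 12 h they were 4666, 4188 and 4493, then 3423, 4570 and 3414, and 2060, 2745 and 2442. At 24 h they were 761, 1040 and 536, then 1029, 841 and 1022, and 572, 737 and 698. Both ER-MyoD constructs thus lay above all control arrays at 6 and 12 h, and at 24 h ER-MyoD wt overlapped with the control while ER-MyoD RRR stayed above it. Its large partner subunit Rrm1 had 327, 296 and 306 in ER-MyoD wt at 24 h, 535, 486 and 396 in ER-MyoD RRR and 489, 444 and 656 in control cells. For Rrm1 ER-MyoD wt was below all other arrays, and ER-MyoD RRR and the control overlapped. Dut, which removes dUTP from the pool, was lower than in control cells at 24 h, with log2 differences of -1.44 ± 0.20 in ER-MyoD wt and -0.96 ± 0.20 in ER-MyoD RRR. That of Tk1 was -0.90 ± 0.18 in ER-MyoD wt. Tyms, thymidylate synthase, had signals of at most 139 and did not pass between constructs at 24 h.

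Of the G1/S regulators, Uhrf1, which links DNA methylation to replicating chromatin, followed the fork genes. Its 24 h signals were 144, 211 and 113 in ER-MyoD wt, 133, 127 and 115 in ER-MyoD RRR and 243, 353 and 358 in control cells. All ER-MyoD arrays lay below all control arrays (-0.98 ± 0.19, adjusted p = 0.000142, and -1.28 ± 0.19, adjusted p = 6.78e-06). The cyclin genes Ccne1 and Ccne2 and E2f1 itself fell from 6 to 24 h in each construct but did not pass between constructs at 24 h. Ccne1 signals at 6 h were 598, 645 and 473 in ER-MyoD wt, 569, 1000 and 657 in ER-MyoD RRR and 226, 318 and 365 in control cells. Both ER-MyoD constructs were above all control arrays, and the difference passed in ER-MyoD RRR (1.23 ± 0.33, adjusted p = 0.0109) but not in ER-MyoD wt (0.91 ± 0.33, adjusted p = 0.0731). E2f1 was at 772, 798 and 864 in ER-MyoD wt at 12 h, and at 545, 428 and 564 in control cells. These groups did not overlap (0.61 ± 0.15, adjusted p = 0.00405).

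The comparison of ER-MyoD wt with the control asks what the ER-MyoD fusion adds to the effect of the medium. Since beta-estradiol is named only for ER-MyoD cells, MyoD and the hormone cannot be told apart in any comparison with the control. At 6 h 6 genes were lower (6.21% of all genes) and 1 was higher (6.51% of all genes), with a median of -0.12 against -0.01 for all genes. When only genes with a mean signal of at least 50 were kept, 21.9% of them passed in either direction. Of the replication genes the same 7 and 2 more passed then, so the count at 6 h is not read as particular to them. The genes that were lower were Pole2, Cdt1, Prim1, Mcm7, Mcm6 and Pold1. Pole2 had 457, 374 and 490 in ER-MyoD wt and 772, 769 and 756 in control cells, and Prim1 1021, 1234 and 1228 against 1245, 1422 and 1587. Neither pair of groups overlapped (-0.86 ± 0.15, adjusted p = 0.000109, and -0.46 ± 0.12, adjusted p = 0.0107). The gene that was higher was Rrm2 (1.10 ± 0.14, adjusted p = 1.07e-06). Under median centring the split was 4 higher and 1 lower, and with the values as deposited 2 higher and 3 lower, so the split of directions at 6 h changed with the scaling.

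At 12 h 9 genes were lower in ER-MyoD wt than in control cells (8.26% of all genes) and 2 were higher (7.16% of all genes), with a median of -0.24 against -0.02 for all genes. Among genes with a mean signal of at least 50, 26.4% passed in either direction, as did the same 11 replication genes and 3 more. Prim1 (-0.78 ± 0.12, adjusted p = 2.37e-05), Pole2 (-0.83 ± 0.15, adjusted p = 0.000124), Cdt1 (-0.71), Mcm4 (-0.66), Mcm6 (-0.54), Pcna (-0.45), Prim2 (-0.72), Pola1 (-0.60) and Tk1 (-0.66) were lower. Rrm2 (0.76 ± 0.14, adjusted p = 0.000156) and E2f1 were higher. Under median centring 2 were higher and 2 lower.

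At 24 h 26 of 40 genes were lower in ER-MyoD wt than in control cells, where 14.0% of all genes were called lower, and none was higher. The median was -0.82, against 0.03 for all genes. By role, 7 of 10 genes of origin recognition and helicase loading were lower, 3 of 4 of helicase activation, 3 of 5 of the clamp and its loader, 7 of 8 of polymerases and primase, 2 of 4 of single-strand binding and flap processing, 3 of 5 of nucleotide supply and 1 of 4 G1/S regulators. The 14 genes that did not pass ranged from Cdc6 (-0.68, adjusted p = 0.0595) to Mcm2. Of 33 other probe sets of these genes with a mean signal of at least 50, 16 passed, 13 of them in genes whose chosen probe set passed too. The other 3 were those of Mcm2, which was higher, and of Fen1 and Rfc4, which were lower. The sign was that of the chosen probe set in 28 of the 33, and none passed in the opposite direction to a chosen one that passed. Of all genes with a mean signal of at least 50, each with 1 probe set, 40.8% passed in either direction. The count of 16 of 33 is therefore not read as particular to these genes. Of the chosen probe sets the same 26 and 3 more passed among genes of that signal. Muscle and fibroblast marker signals moved with this difference. The summed fibroblast markers were 17240 to 24762 in ER-MyoD wt, 28950 to 35037 in ER-MyoD RRR and 36711 to 44691 in control cells at 24 h. Their part in the difference was not tested. Without the 3 arrays that stood apart, and without each array in turn, the count stayed between 26 and 29.

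**Figure D3:**
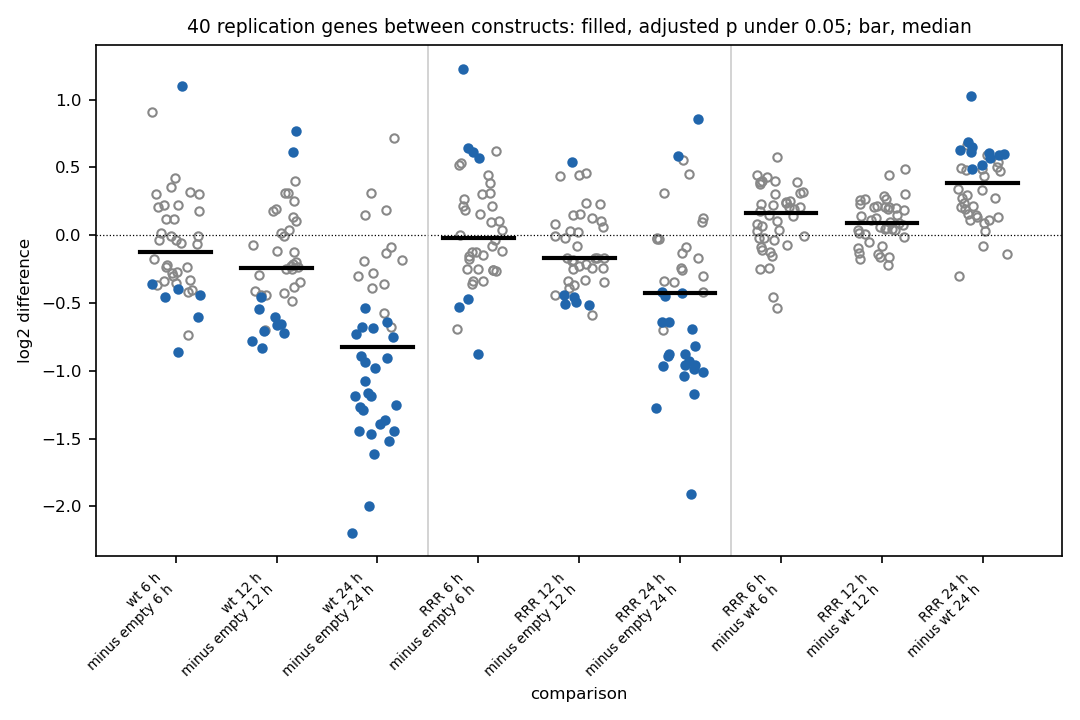
Log2 difference (vertical axis) of each of the 40 replication genes in the 9 comparisons between constructs at the same time (horizontal axis). Filled circles have an adjusted p under 0.05 by limma, open circles do not, and bars are medians. The medians of both ER-MyoD constructs against the control lie lower at 24 h (-0.82 and -0.42) than at 6 h (-0.12 and -0.02).

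Whether the gap to the control itself grew from 6 to 24 h was tested as a difference of differences. It became more negative for 23 of 40 genes in ER-MyoD wt (8.24% of all genes called lower) and for none more positive, with a median of -0.80 against 0.03 for all genes. Prim2 had the smallest p (-1.68 ± 0.23, adjusted p = 5.08e-06). Its 6 h signals of 601, 610 and 779 in ER-MyoD wt all lay above those of control cells, and at 24 h all lay below them. Mcm5 (-1.26 ± 0.18, adjusted p = 5.77e-06), Prim1 (-1.15 ± 0.17, adjusted p = 1.52e-05) and Pcna (-0.84 ± 0.15, adjusted p = 0.000104) followed. Rrm2, which was above the control at 6 h and overlapped with it at 24 h, passed in this test too (-0.95 ± 0.20, adjusted p = 0.000825).

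**Figure D4:**
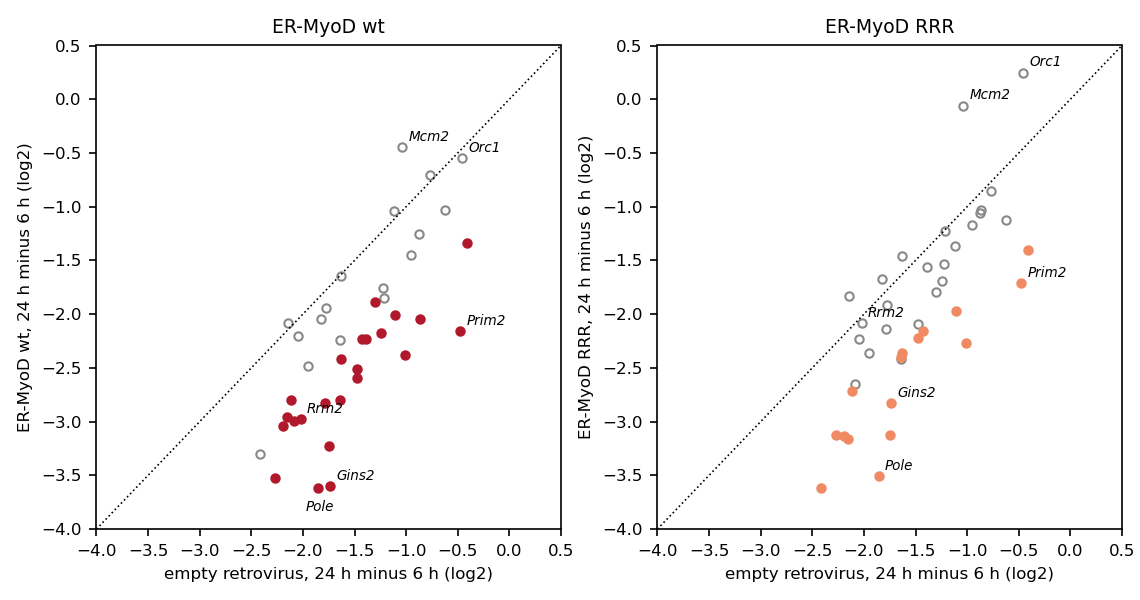
Change from 6 to 24 h (log2) of each replication gene in ER-MyoD wt (left, vertical axis) or ER-MyoD RRR (right, vertical axis) against that in control cells (horizontal axis), with equality as the dotted line. Filled circles are genes whose change differed between the constructs at an adjusted p under 0.05, 23 for ER-MyoD wt and 16 for ER-MyoD RRR. The filled circles lie below the line, and Mcm2 lies above it on both sides.

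ER-MyoD RRR was compared with the same control arrays, so its differences share them with those of ER-MyoD wt. At 6 h 4 genes were higher (7.18% of all genes) and 3 lower (6.63% of all genes), with a median of -0.02 against 0.04. Among genes with a mean signal of at least 50, 24.4% passed in either direction. The same 7 replication genes and 3 more passed then, so this count is not read as particular to them. Pola1 was lower, at 243, 239 and 199 against 455, 435 and 462 (-0.87 ± 0.16, adjusted p = 0.000274), and Mcm4 (-0.53) and Pole2 (-0.47) were lower with it. Rrm2 (0.64), Rrm1 (0.61), Pold2 (0.57) and Ccne1 (1.23) were higher. Rrm1 had 2652, 2426 and 2348 against 1311, 1677 and 1246, and Pold2 1286, 1207 and 1184 against 751, 728 and 786. None of these 3 pairs of groups overlapped. With the values as deposited and under median centring the split at 6 h was 8 higher and 1 lower, and without control replicate 1 the count was 4.

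At 12 h 5 genes were lower in ER-MyoD RRR than in control cells (4.97% of all genes) and 1 was higher (5.11% of all genes). Among genes with a mean signal of at least 50, 17.5% passed in either direction. The same 6 replication genes and 1 more passed then, so this count is not read as particular to them. Prim1 (-0.49 ± 0.12, adjusted p = 0.0074), Cdt1 (-0.51), Mcm6 (-0.44), Mcm4 (-0.46) and Prim2 (-0.51) were lower, and Rrm2 (0.54) was higher. With the values as deposited or under median centring 2 genes were higher and none lower. Without ER-MyoD RRR replicate 1 or without control replicate 2 the count was 2, and leaving out ER-MyoD RRR replicate 2 gave 3.

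At 24 h 20 genes were lower in ER-MyoD RRR than in control cells (10.5% of all genes) and 2 were higher (8.56% of all genes), with a median of -0.42 against 0.03. The smallest p-values were those of Mcm7 (-0.89 ± 0.10, adjusted p = 9.47e-08), Pole, Prim1 (-1.01 ± 0.12, adjusted p = 4.32e-07) and Mcm6 (-0.98 ± 0.12, adjusted p = 5.54e-07). By role 7 of 10 genes of helicase loading were lower and 6 of 8 polymerase and primase genes. The genes that were higher were Mcm2 and Rrm2 (0.58 ± 0.14, adjusted p = 0.00276). The gap became more negative from 6 to 24 h for 16 genes (5.93% of all genes), with a median of -0.49 against -0.02, among them Prim2 (-1.23 ± 0.23, adjusted p = 0.000532), Rpa1 (-0.86 ± 0.16, adjusted p = 0.000533), Mcm7 (-0.74 ± 0.14, adjusted p = 0.000572) and Pold2 (-0.99 ± 0.20, adjusted p = 0.00084).

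The comparison of ER-MyoD RRR with ER-MyoD wt asks whether the mutated lysines matter for these genes, and it shares the arrays of both constructs with the comparisons above. At 6 h no gene passed by limma at an adjusted p under 0.05 (3.66% of all genes did), and at an unadjusted p under 0.05 there were 8 higher and 2 lower. Leaving out ER-MyoD wt replicate 2 gave 1 gene and leaving out ER-MyoD RRR replicate 2 gave 2. Without the 3 arrays that stood apart 4 passed, Tk1 and Pold1 as higher and Pola1 and Rrm2 as lower. At 12 h none passed either (1.75% of all genes), with 2 higher and 0 lower at an unadjusted p under 0.05. The share of all genes is not given for the unadjusted counts at 6 and 12 h, so no lean in direction is read from them. At 24 h 11 of 40 genes were higher in ER-MyoD RRR, where 3.34% of all genes were called higher, and none was lower, with a median of 0.39 against 0.00 for all genes. They were Pcna, Mcm5 (0.63 ± 0.13, adjusted p = 0.00198), Prim1 (0.60 ± 0.12, adjusted p = 0.0024), Rrm1 (0.60 ± 0.14, adjusted p = 0.00836), Mcm4 (0.57), Gins2 (1.02), Rfc2 (0.59), Mcm10 (0.61), Lig1 (0.49), Pole2 (0.52) and Orc1 (0.68). By group means, 31 of the 40 genes were ordered ER-MyoD wt, ER-MyoD RRR, control from low to high at 24 h. The share of all genes in this order is not given here, so the order is not read as particular to these genes. The summed muscle markers and fibroblast markers of ER-MyoD RRR also lay between those of the other constructs at 24 h, as given above, and their part in the difference was not tested.

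The count of 11 depended on the model and on single arrays. When only the 6 arrays compared were fitted, Pcna alone passed, and under median centring Gins2 alone. Without ER-MyoD RRR replicate 1 the count was 5, without ER-MyoD wt replicate 3 it was 6, and leaving out ER-MyoD RRR replicate 3 gave 7. A second Orc1 probe set had the opposite sign (-1.02 ± 0.34, adjusted p = 0.135 over all probe sets), and second probe sets of Mcm3 (1.47 ± 0.20, adjusted p = 4.3e-05 over all probe sets) and Cdt1 (0.78 ± 0.16, adjusted p = 0.00373 over all probe sets) passed where the chosen ones did not. Whether the difference between the ER-MyoD constructs changed from 6 to 24 h was tested as well. It did for 3 genes (1.33% of all genes called higher), Pcna (0.67 ± 0.15, adjusted p = 0.0109), Rrm2 (0.89 ± 0.20, adjusted p = 0.0123) and Pola1 (1.01 ± 0.23, adjusted p = 0.014), with a median of 0.19 against -0.03.

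A second list of 56 measured replication genes, with the remaining ORC and GINS subunits, fork proteins, chromatin assembly at forks, nucleotide enzymes and S-phase kinases, was set beside the 40. From 6 to 24 h 45 of 56 fell in ER-MyoD wt, 49 in ER-MyoD RRR and 45 in control cells (12.4%, 12.9% and 7.67% of all genes were called lower). In the same order 3, 3 and 1 rose (11.4%, 11.0% and 8.09% of all genes were called higher), and the medians were -1.31, -1.29 and -0.99. At 24 h 22 were lower in ER-MyoD wt than in control cells (39.3%, against 14.0% of all genes) and 6 higher (10.7%, against 11.4%), with a median of -0.33. Timeless, a protein that steadies the fork (-2.57), Slbp, which binds histone mRNA (-1.54), and Cdc7, the kinase that fires origins (-1.88), were lower, while Top1, a topoisomerase that is also used in transcription, was higher (1.87). From 0 to 6 h in ER-MyoD wt 24 of the 56 rose (42.9%, against 9.51% of all genes) and 5 fell (8.93%, against 8.20%, a share near that of all genes). The E2F-type motif was in 19 of 60 of their start windows (31.7%).

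The mitosis genes, 23 measured genes of kinases, cyclins and kinetochore proteins that act after replication, were set beside the 40 as well. At 6 h 13 of 23 were higher in ER-MyoD wt than in control cells and none lower (median 0.82), and 12 were higher in ER-MyoD RRR (median 0.78), where 6.51% and 7.18% of all genes were called higher, while for the 40 replication genes the corresponding medians were -0.12 and -0.02. From 6 to 24 h all 23 fell in ER-MyoD wt (median -2.55), 22 in ER-MyoD RRR (median -1.78) and 11 in control cells, where 1 rose (median -0.63), against 12.4%, 12.9% and 7.67% of all genes called lower. At 24 h 21 were lower in ER-MyoD wt than in control cells (median -1.10) and 8 in ER-MyoD RRR (median -0.33), against 14.0% and 10.5% of all genes. The gap between ER-MyoD wt and the control became more negative from 6 to 24 h for 22 of them (median -1.83, against 8.24% of all genes called), among them Ccnb2, a cyclin of mitosis (-2.16), and the mitotic kinase Aurka (-2.34). Among their 22 start windows 1 (4.55%) held the E2F-type motif and 86.4% held CCAAT. The difference between the lists was not tested.

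**Figure D5:**
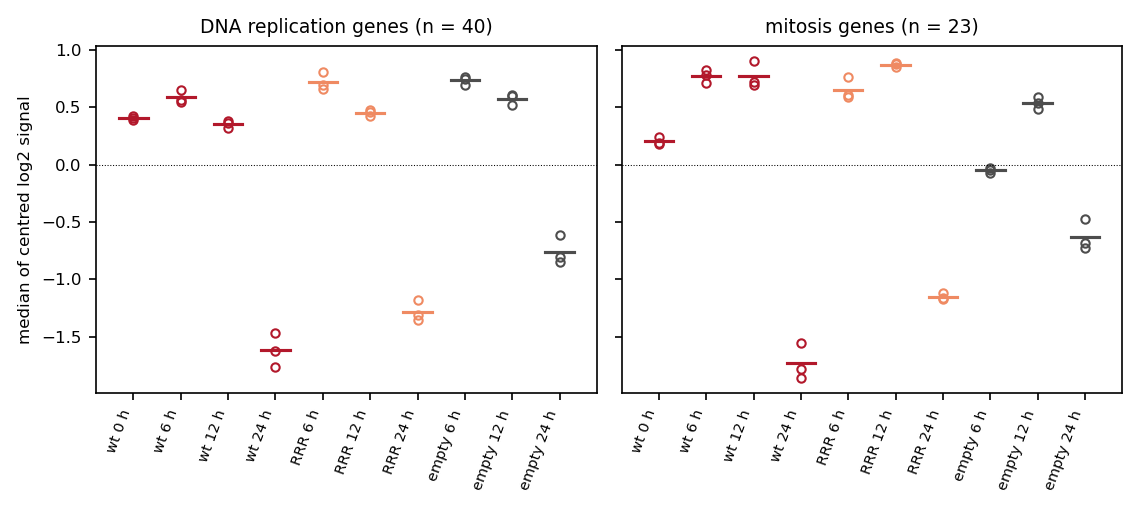
Median over the 40 replication genes (left) and 23 mitosis genes (right) of the centred log2 signal on each array (circles), with the mean of 3 arrays as a bar, by construct and time. In control cells the replication genes are at 0.69 to 0.77 at 6 h and the mitosis genes at -0.07 to -0.03, and both lists are lowest in ER-MyoD wt at 24 h.

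The genes that gate entry into S phase were measured alongside. Of 17 genes of G1 control, 9 were lower (14.0% of all genes) and 4 higher (11.4%) in ER-MyoD wt than in control cells at 24 h, and 7 lower (10.5%) and 4 higher (8.56%) in ER-MyoD RRR. Rb1, the retinoblastoma protein gene, had a mean signal of 1947 in ER-MyoD wt, 1474 in ER-MyoD RRR and 183 in control cells at 24 h (differences from the control 3.41 ± 0.22 and 3.10 ± 0.22). Cdkn1a, which encodes the inhibitor p21 of cyclin-dependent kinases, had 6861, 5005 and 985 in the same order (2.67 ± 0.17 and 2.35 ± 0.17). Cdkn2c, which encodes the inhibitor p18 of the same kinases, was lower in ER-MyoD wt than in control cells (-1.40 ± 0.13, adjusted p = 2.49e-09) and higher in ER-MyoD RRR than in ER-MyoD wt (1.07 ± 0.13, adjusted p = 7.7e-06). Ccnd1, the G1 cyclin that follows growth factors, fell from 6 to 24 h in each construct, with log2 differences of -3.52 ± 0.11 in ER-MyoD wt, -2.95 ± 0.11 in ER-MyoD RRR and -2.18 ± 0.11 in control cells. Rb1 and Cdkn1a did not pass between 6 and 24 h in control cells (0.33, adjusted p = 0.412, and -0.45, adjusted p = 0.0706). Myc, a transcription factor of growing cells, was lower than in control cells at 24 h (-2.20 ± 0.31 in ER-MyoD wt and -1.41 ± 0.31 in ER-MyoD RRR), and Ccnd3, the D cyclin kept in muscle, was higher by 1.41 ± 0.19 and 0.62 ± 0.19. Myog, the muscle transcription factor that follows MyoD, had mean signals of 6113, 3884 and 15.0 at 24 h. Rb1, Cdkn1a, Myog, Myc and Ccnd1 did not pass between ER-MyoD RRR and ER-MyoD wt at 24 h, and Ccnd3 was lower in ER-MyoD RRR (-0.78 ± 0.19, adjusted p = 0.00938).

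Among the 33 replication genes with a start window, the 13 with the E2F-type motif had a median difference of -1.17 between ER-MyoD wt and the control at 24 h, with a range of -1.52 to -0.13. The 20 genes without it had a median of -0.66 and a range of -1.61 to 0.71. The ranges overlap, and Prim1, without any of the 4 spellings, was the lowest of the 33. This is a description of the genes that had a window, and the 7 others, Mcm4, Rfc2, Prim2, Gins1, Gins2, Ccne2 and Pole, are not part of it.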

How the data were processed

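The deposited values are linear intensities, 1 for each probe set on an array, with the mean of each array without its highest and lowest 2% at 150, as found from the values. The software behind them is not given in the sources used here. Without 64 controls among the 45101 probe sets, the other 45037 were quantile-normalised and taken as log2(signal + 16), and 1 probe set per gene left 18193 genes. A log2 difference is on this scale and understates the change of dim genes. The limma package (3.58.1, R 4.3.3) then fitted group means over the 30 arrays, with a trend in eBayes and 20 residual degrees of freedom. The 20 comparisons were two-sided, with Benjamini-Hochberg adjustment over all genes within each and a threshold of 0.05. On simulated data for ER-MyoD wt minus empty retrovirus at 24 h over 18193 genes, 68% of genes changed by 1 on the log2 scale and 97% of those changed by 2 were recovered, and 6.25% of calls were false. Only 200 genes were changed there, none among the dimmest, with independent noise and no other difference between groups. These rates therefore need not hold for the measured data. Per-array values are given for the 4 genes with the smallest p in each main comparison and the brightest of each role, and genes outside the 40 by smallest p or as 6 fixed genes. Further genes are printed per array because their probe sets or groups differ, chosen after their values were seen. The genes and lists were chosen with earlier results of these data known. Plots used Python 3.11.15 and matplotlib 3.10.9.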

Additional observations from a re-analysis of the deposited data

Results flagged for a closer look

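Differences between constructs that changed from 6 to 24 h were picked out by the test of that change in the model, over all genes. The gap of ER-MyoD wt to the control changed for 23 replication genes, led by Prim2 (-1.68), Mcm5 (-1.26), Prim1 (-1.15) and Pcna (-0.84) on the log2 scale. The gap of ER-MyoD RRR to the same control arrays changed for 16, led by Prim2 (-1.23), Rpa1 (-0.86), Mcm7 (-0.74) and Pold2 (-0.99). The difference between ER-MyoD RRR and ER-MyoD wt changed for 3, Pcna (0.67), Rrm2 (0.89) and Pola1 (1.01). All but these last 3 became more negative with time. In the same order 14.7%, 10.5% and 2.03% of all genes changed in either direction. Among genes with a mean signal of at least 50 these shares were 24.8%, 18.4% and 4.54%. With 3 arrays in each group, no single array was tested as an outlier.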

How the results depend on the processing

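The falls from 6 and 12 h to 24 h and the lower signals of both ER-MyoD constructs at 24 h stayed within 1.5 times of the reported counts under the 10 alternatives and without each array. Other counts moved. With the values as deposited 1 gene passed in ER-MyoD RRR minus wt at 6 h, 2 in RRR minus the control at 12 h and 1 in the change of RRR minus wt. Under median centring the counts were 4 for wt minus the control at 12 h, 2 for RRR minus the control at 12 h, 1 for RRR minus wt at 24 h and 0 for its change. The median of all genes lay between -0.15 and 0.12 on the log2 scale over the 20 comparisons under median centring and between -0.10 and 0.11 as deposited. RRR minus wt at 6 h gave 1 gene with a pseudocount of 64, 3 with a filter at a mean signal of 50 and 4 without the 3 arrays that stood apart, where 12 h gave 1. With the mean of all probe sets of a gene, the counts were 4 for each ER-MyoD construct against the control at 6 h and 2 for RRR at 12 h, and 4 differences of 3 genes changed sign: Mcm6 in wt minus the control at 6 h (0.029), Rrm1 in RRR minus the control at 6 h (-0.010) and in its change (0.16), and Orc1 in RRR minus wt at 24 h (-0.17). With only the arrays compared, the counts were 2 for RRR minus the control at 12 h, 1 for RRR minus wt at 24 h and 0 for its change. The fit without other arrays has fewer samples, and the cause of the other shifts was not tested. Leaving out 1 array at a time gave 4 to 7 genes for RRR minus the control at 6 h, 2 to 5 at 12 h, 0 to 2 for RRR minus wt at 6 h and 5 to 12 at 24 h. Equal replicate numbers were not taken to pair the arrays, since 7 of 135 same-numbered pairs had a correlation of deviations over 0.1 (median 0.0128, against -0.00887 for different numbers). As a hint from the data, 20 of 30 arrays correlated best with one of their own number. With the replicate block, 2 genes passed for RRR minus wt at 6 h, and no other count moved by over 1.5 times. With 3 arrays per group, small differences in dim genes such as Tyms, Ccne2 and Orc1 are not well measured.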
